A study of Homo sapiens with 8 samples.

Results

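The acute transcript response of A375 cells to vemurafenib was read from 2 of the 8 arrays of the series. A375 is an established human melanoma line with an activating BRAF mutation, and vemurafenib is an inhibitor of the mutant BRAF kinase. Both cultures had been transfected with a nontargeting siRNA (siCont), in RPMI1640 with 10% fetal bovine serum, and were then given 10 uM vemurafenib or the solvent DMSO for 4 h. The 2 arrays were chosen by their treatment labels alone, and each condition has 1 array. Another array with the same drug, dose and time, from cells transfected with siRNA against ATF4 (siATF4), is a different condition and is quoted only for levels. The other 5 arrays were siCont and siBRAF cells in normal or glutamine-free medium (18 h) and siATF4 cells in normal medium, and 1 pair of them, siBRAF against siCont in normal medium, is used below. The same line served throughout, and the labels give no number of cultures behind an array.

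Mutant BRAF signals through the kinases MEK and ERK to transcription factors of the ETS and AP-1 families. ERK also switches on its own brakes: DUSP phosphatases that remove its phosphate groups, and Sprouty and SPRED proteins that act further up the pathway. ATF4 is the transcription factor of the integrated stress response. It is translated when the initiation factor eIF2 alpha is phosphorylated, and it raises genes for amino acid synthesis, amino acid uptake and stress signalling.

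Values are array intensities on a linear scale, and a difference is log2(intensity + 1) with vemurafenib minus the same with DMSO. A gene was read from its probe set, a group of short probes for 1 transcript, with the highest mean over the 8 arrays. Genes that lay below the median probe set on both arrays (36.4 with DMSO, 36.9 with vemurafenib) were left out. Of 19775 genes 13160 entered the comparison. Their median difference was 0.02 with an SD of 0.40, and 89.6% lay within 0.5 of 0. A gene is called higher or lower where it was at least 2-fold apart, which held for 113 genes (0.859%) on the higher side and 253 genes (1.92%) on the lower, 2.78% together. Since each condition has 1 array, nothing here could be checked against replicates or tested. The values describe 2 libraries, and fewer cells expressing a gene cannot be told apart from less RNA per cell. The 5 medium arrays had medians of 14.8 to 15.5, so levels are compared only within a set of arrays and never across the sets.

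The lower side was the longer one at every size. At least 4-fold differences were seen for 55 lower and 17 higher genes, and at least 8-fold differences for 14 lower and 5 higher. Of the lower genes 43 were below the array median with vemurafenib, and of the higher genes 26 were below it with DMSO, so those sizes depend on background and on the added constant. Where a lower gene had 2 or more probe sets that entered (141 genes), all of them pointed down for 132 and all were at least 2-fold lower for 63. Among 59 such higher genes all probe sets pointed up for 55, and all were at least 2-fold higher for 22. Probe sets of a gene read the same RNA and are no replicates. Ranges of a gene's probe sets given below cover those that entered. The mean of all (or of its) probe sets also takes in any that lay below the median on both arrays.

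**Figure D1:**
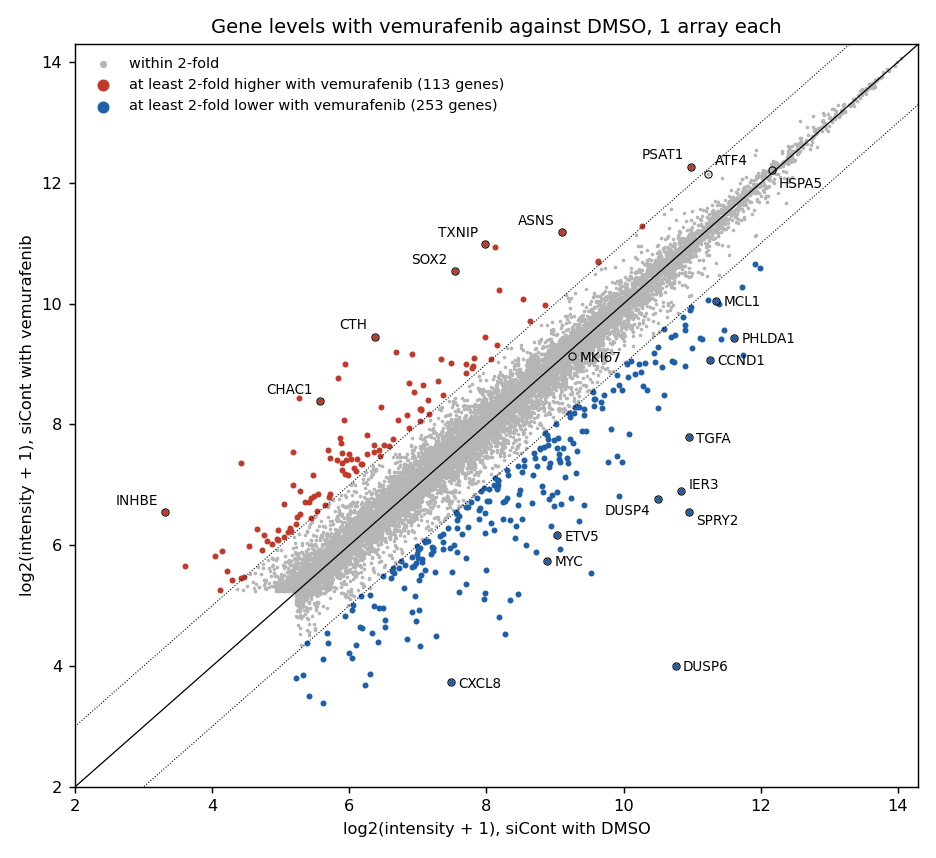
Each point is 1 of 13160 genes, with log2(intensity + 1) on the DMSO array along the horizontal axis and on the vemurafenib array along the vertical axis. Red points are the 113 genes at least 2-fold higher with vemurafenib, blue points the 253 at least 2-fold lower, and the dotted lines mark 2-fold. DUSP6 lies farthest below the diagonal.

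The cells matched their label in part. The lineage factors SOX10 (intensity 893 with DMSO, 651 with vemurafenib) and MITF (546 and 798) were above the array median. The pigment genes TYRP1, PMEL and MLANA were below it on both arrays, and 10 of 17 melanocyte lineage genes reached it with DMSO. Leukocyte CD45 (PTPRC) and epithelial EPCAM and CDH1 were below it too. Other markers reached it on both arrays: 2 of 5 immune, 1 of 5 endothelial, 4 of 6 epithelial and 4 of 5 fibroblast genes. The 5 immune markers summed to 137 with DMSO and 142 with vemurafenib, and the 5 endothelial markers to 146 and 147. The 5 fibroblast markers summed to 385 and 417. The 6 epithelial markers summed to 4497 and 2961, nearly all of it the keratin KRT18 (3884 and 2243, a difference of -0.79). In the control probes for RNA quality, the 3' minus the 5' log2 reading of actin was -0.18 with DMSO and -0.07 with vemurafenib, and that of GAPDH -0.03 and -0.04. The part of these shifts in the results below was not tested.

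The lowest gene was DUSP6, a brake of the ERK pathway. DUSP6, the cytoplasmic phosphatase specific for ERK, read 1733 with DMSO and 15.0 with vemurafenib, a difference of -6.76 or 108-fold on the log2(value + 1) scale. Its 3 probe sets ran from -7.30 to -5.32, and with 16 added the difference was -5.82. With siATF4 and vemurafenib it read 21.6. The nuclear phosphatase DUSP4 read 1450 and 108 (-3.74), and DUSP5, another nuclear ERK phosphatase, 380 and 63.0 (-2.57). DUSP7 was at -1.21 and DUSP1 at -1.01. With the mean of all probe sets these last became -0.91 and -0.41. Of the 11 DUSP genes 5 were lower and 0 higher, with a median of -0.94. The stress kinase phosphatases DUSP8 (0.02) and DUSP16 (0.13) lay near 0.

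Of 14 Sprouty, SPRED and related inhibitors, which act at the receptor and at RAS and RAF, 9 were lower and 0 higher. SPRY2 read 1990 with DMSO and 92.5 with vemurafenib (-4.41, 21.3-fold). SPRY4 read 208 and 40.2 (-2.34), and SPRY1 79.8 and 22.3 (-1.79). The vemurafenib levels of SPRY2 and SPRY4 with siATF4 were close by, at 75.4 and 40.4. SPRED2, which blocks RAF activation, read 492 and 79.1 (-2.62). PHLDA1, a growth-regulated pleckstrin homology domain protein, read 3130 and 690 (-2.18), and all of its 6 probe sets lay between -2.48 and -1.61. The cytokine signalling inhibitor SOCS3 was at -1.80, and at -0.67 with the mean of its probe sets. With the mean of all probe sets SPRED2 came to -1.22 and SPRY1 to -1.10. Only 1 probe set of SPRED2 had entered. The median of the 14 genes was -1.61. The ubiquitin ligase CBL (-0.01) and the adaptor GAB1 (0.32) lay near 0.

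The kinases and adaptors of the cascade itself were not among the called genes. Of 13 entered, 0 were higher and 0 lower. Their median was -0.04, and KSR2, a scaffold, had the largest difference at 0.62. The kinase gene MAP2K1, which encodes MEK1, read 960 and 802 (-0.26).

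Transcription factors downstream of ERK came next. Of 14 ETS factors 4 were lower and 0 higher, with a median of -0.28. ETV5, a PEA3 family factor, read 524 with DMSO and 70.6 with vemurafenib (-2.87), with its 4 probe sets at -3.13 to -0.68. ETV1 of the same family read 497 and 112 (-2.14), and ELK3, a ternary complex factor, was at -1.24. FLI1 was at -1.77, and at -0.55 with the probe set chosen on the 2 arrays. The remaining PEA3 member, ETV4, read 569 and 288 and at -0.98 fell just short of 2-fold. With the mean of all probe sets ETV5 came to -1.83 and ETV1 to -1.51. The ETS1 (-0.34), ETS2 (-0.19) and ELK1 (-0.22) genes stayed within 2-fold.

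Immediate early genes, which growth factors switch on within minutes to hours, were lower in 11 of 23 with 0 higher, and their median was -0.78. The AP-1 family member FOSL1 read 1008 with DMSO and 165 with vemurafenib (-2.61). MAFF, a small MAF factor, read 735 and 45.7 (-3.98, or -2.79 with the mean of its probe sets), and the stress-protective gene IER3 1834 and 119 (-3.94). IER3 read 122 with siATF4 and vemurafenib. EGR3 read 267 and 81.9 (-1.69), and the orphan receptor gene NR4A2 71.6 and 23.8 (-1.55). EGR1, a zinc finger factor induced through serum response factor, read 89.3 and 30.0 (-1.54), with its other probe set at -1.89. FOS was low on both arrays, at 36.4 and 12.9 (-1.43), and became -0.86 with 16 added to the intensities. JUN, the partner of FOS in AP-1, read 961 and 453 (-1.08), while JUNB was at -0.46, FOSL2 at -0.32 and JUND at 0.39. Without probe sets shared between transcripts 7 of 14 immediate early genes were lower.

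The EGR1 promoter is shown because 2 CArG boxes, the motif of serum response factor, fall in it. The window runs from 139 to 40 bases before the RefSeq transcription start on GRCh38.p14, plus strand, at chr5:138465340-138465439, with the CArG boxes in capitals.
EGR1: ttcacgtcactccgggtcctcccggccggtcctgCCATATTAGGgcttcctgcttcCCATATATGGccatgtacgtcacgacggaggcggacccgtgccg

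MYC, a growth-promoting transcription factor, read 471 with DMSO and 52.6 with vemurafenib (-3.14, 8.81-fold), and 26.6 with siATF4 and vemurafenib. It was the only called gene of 9 in its network. Its partner MAX was at -0.41, and the antagonists MXI1 and MXD1 at 0.06 and 0.15. Ribosome biogenesis genes were all within 2-fold (0 of 19 called), yet 18 of 19 lay below 0, with a median of -0.31. BYSL, a factor for the small ribosomal subunit, had the largest difference at -0.73. The 15 cytosolic ribosomal protein genes ranged from -0.03 to 0.10, and the 11 reference genes from -0.26 to 0.25.

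Among mRNA decay and early repressor genes, HES1, a repressor downstream of Notch, read 153 and 21.6 (-2.77). Its other entered probe set gave -2.23, and the mean of all its probe sets, entered or not, -1.73. ZFP36L2, which destabilises AU-rich mRNAs, read 1301 and 381 (-1.77). BHLHE40 was at -1.18, and at -0.77 with the mean of its probe sets. The inhibitor of basic helix-loop-helix factors ID2 went the other way, from 120 to 577 (2.26). ID3 (0.73) and ID1 (0.62) stayed within 2-fold. In all 3 of 17 were lower and 1 was higher.

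**Figure D2:**
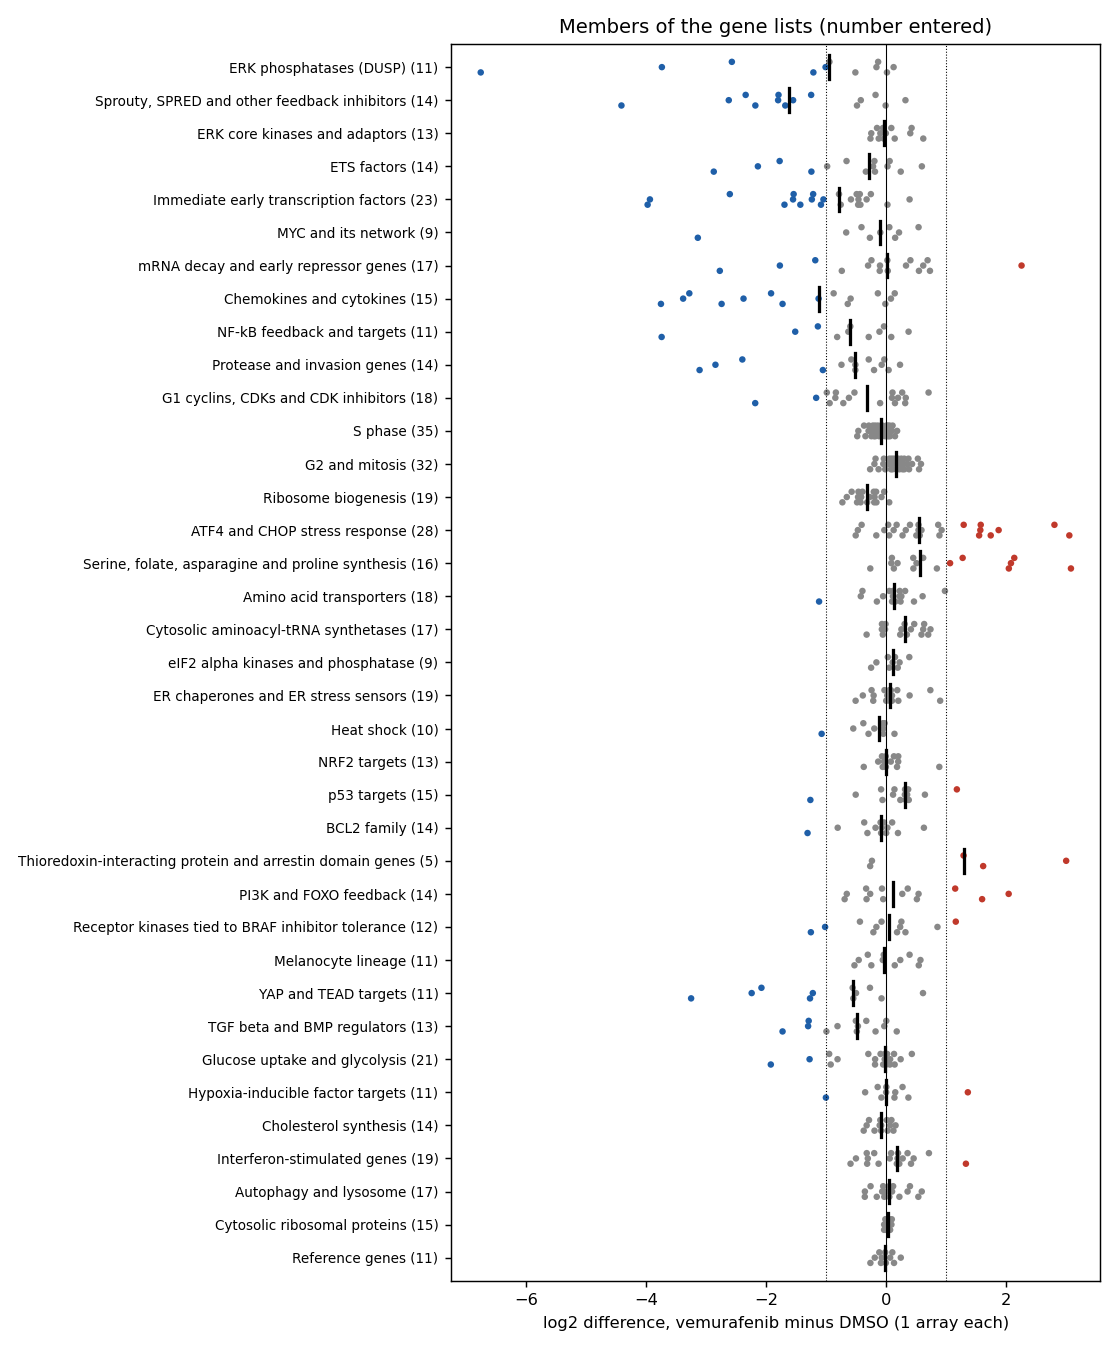
Each point is a member of a gene list, placed at its log2 difference between the vemurafenib and the DMSO array, and the black bar is the list's median. Red and blue points are at least 2-fold higher or lower, and the number after each name counts the genes entered. The DUSP, Sprouty, immediate early and cytokine lists reach far to the left, while the ATF4, amino acid synthesis and arrestin domain lists reach to the right and the S phase, mitosis and ribosomal protein lists stay between the dotted 2-fold lines.

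Of 4 EGF family ligands 2 were lower and 0 higher. TGFA, a ligand of the EGF receptor, read 1978 with DMSO and 220 with vemurafenib (-3.16), with its 3 probe sets at -3.16 to -2.01 and their mean at -2.53. HBEGF, another such ligand, read 302 and 85.8 (-1.81), with its other entered probe set at -1.66. The mean of all its probe sets, entered or not, was -0.92. The neuregulin genes NRG1 (-0.07) and NRG2 (-0.25) lay near 0.

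Of 15 chemokine and cytokine genes 8 were lower and 0 higher, with a median of -1.12. The neutrophil chemokine CXCL8 read 178 and 12.3 (-3.75), and CXCL1 291 and 26.97 (-3.38). CCL20 read 41.7 and 10.3 (-1.92). All 3 of these chemokines were below the array median with vemurafenib. With 16 added CXCL8 came to -2.78 and CCL20 to -1.13. IL24 read 353 and 35.4 (-3.28). The IL6 family cytokines IL11, at 682 and 101 (-2.74), and LIF, at 193 and 36.3 (-2.38), were lower as well, with IL11 at -2.07 by the mean of its probe sets. IL1B (-0.01) and CSF1 (0.15) were not called. The receptor TLR4 read 309 and 22.1 (-3.74), with its 4 probe sets at -3.74 to -2.36 and their mean at -3.10. TNFAIP3, a brake on NF-kB signalling, read 136 and 47.1 (-1.51). IRAK2 codes for a kinase of the same receptor pathway. The IRAK2 difference was -1.14, or -0.964 with 16 added. NFKBIA, which encodes I kappa B alpha, was at 0.38, and 3 of 11 NF-kB genes were lower in all.

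Genes of invasion and of the YAP and TEAD programme were lower in part. The receptor kinase EPHA2 read 975 and 112 (-3.11), the secreted glycoprotein STC1 423 and 58.1 (-2.84), and the plasminogen activator PLAT was at -1.05. The urokinase receptor PLAUR read 871 and 165 (-2.40), but its unshared probe sets gave -0.31. The collagenase MMP1 read 409 and 401 (-0.03). Of 14 protease and invasion genes 4 were lower and 0 higher.

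Of 11 YAP and TEAD targets 5 were lower and 0 higher. ANKRD1 read 325 and 33.3 (-3.25), the matricellular genes CCN2 1078 and 227 (-2.24) and CCN1 1729 and 718 (-1.27), and tissue factor F3 128 and 29.6 (-2.08). The angiomotin gene AMOTL1 was at -1.22. AJUBA, at 0.62, and the receptor kinase AXL, at -0.07, were not called. TGF beta regulators were lower in 3 of 13: INHBA, an activin subunit, read 2037 and 615 (-1.73), SMAD3 was at -1.30 and TGFBR2 at -1.29. With the mean of their probe sets SMAD3 and TGFBR2 came to -0.82 and -0.92.

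Of the cell cycle lists, only that of G1 genes held called genes. Cyclin D1 (CCND1), which drives entry into S phase, read 2440 with DMSO and 537 with vemurafenib (-2.18), and 763 with siATF4 and vemurafenib. The phosphatase CDC25A read 687 and 306 (-1.16). The E cyclins CCNE2 (-0.99) and CCNE1 (-0.84) and the kinase CDK6 (-0.84) were just within 2-fold, and the inhibitor CDKN1B, p27, was at 0.71. Of 18 G1 genes 2 were lower and 0 higher, with a median of -0.31. S phase genes had 0 of 35 called, a median of -0.09 and the replication factor MCM10 at -0.48 as their largest difference. Mitotic genes had 0 of 32 called and a median of 0.17, and the kinetochore gene NDC80, at 0.58, differed most. The proliferation marker MKI67 read 608 and 558 (-0.12).

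In the BCL2 family the short-lived survival gene MCL1 read 2617 and 1056 (-1.31), and all of its 6 probe sets lay between -1.52 and -0.85. BCL2L1, which encodes BCL-XL, was at -0.81. The death genes known to follow from ERK inhibition were near their DMSO level. BCL2L11, which encodes BIM, read 140 and 150 (0.10), and BMF 78.9 and 90.8 (0.20). Of 14 family members 1 was called. Among p53 targets TP53INP1 was at 1.18, or 0.40 with the mean of its probe sets, and the exonuclease gene AEN at -1.26, with a list median of 0.31 over 15.

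On the higher side the ATF4 and CHOP list held the most called genes. ATF4 itself read 2390 with DMSO and 4548 with vemurafenib, a difference of 0.93, just within 2-fold, and 757 with siATF4 and vemurafenib. Of 28 ATF4 and CHOP genes 8 were higher and 0 lower, and 23 of 28 lay above 0, with a median of 0.54. CHAC1, which degrades glutathione, read 46.6 and 333 (2.81). JDP2, a repressor of the AP-1 family, read 60.2 and 509 (3.06) on its only entered probe set. The mean of all its probe sets, entered or not, was 1.64. DDIT3, which encodes CHOP, read 161 and 541 (1.75), and SESN2, a leucine sensor that restrains mTORC1, 134 and 401 (1.58). The lipoprotein receptor gene VLDLR read 50.8 and 190 (1.88). ATF3 read 75.6 and 227 (1.57), with its 3 probe sets at 0.07, 1.11 and 1.57. The 0.07 is from the unshared probe set, which read 35.9 and 37.8, near the array median on both arrays. TRIB3, an inhibitor of AKT and ATF4, read 750 and 1108 (0.56). GDF15 (-0.51) and PPP1R15A (-0.47), which encodes the phosphatase subunit GADD34, were among the 5 below 0.

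INHBE, an activin subunit gene outside these lists, was the highest gene, from 8.91 to 92.4 (3.24), starting below the array median. With 16 added it came to 2.12. With siATF4 and vemurafenib it read 6.34.

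Among amino acid synthesis genes 6 of 16 were higher and 0 lower. CTH, the last enzyme of cysteine synthesis, read 81.6 with DMSO and 700 with vemurafenib (3.09), with its second probe set at 2.45. Asparagine synthetase ASNS read 548 and 2326 (2.08). The serine enzymes PSPH and PSAT1 read 289 and 1199 (2.05) and 2032 and 4931 (1.28), while PHGDH, the entry enzyme of the same path, was at 0.85. ALDH1L2, a mitochondrial folate enzyme, read 59.9 and 267 (2.14). CBS, the first enzyme of cysteine synthesis, was at 1.07, with another probe set at 1.22. The unshared one gave 0.12, from 37.5 and 40.9, near the array median on both arrays. Of the 16 genes 15 lay above 0, and the median was 0.56. The mean of all probe sets, entered or not, gave 1.12 for ASNS, 1.36 for PSPH and 1.30 for ALDH1L2. Only 1 probe set of ASNS had entered, and the 2 that entered for PSPH gave 2.05 and 1.88. PCK2, a mitochondrial enzyme of gluconeogenesis and also among the 20 highest genes, read 116 and 412 (1.82).

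Both lists were shorter without probe sets shared between transcripts, with 4 of 18 ATF4 and CHOP genes and 3 of 13 synthesis genes higher. The levels with siATF4 and vemurafenib belong to another condition, with siRNA against ATF4 in place of siCont. They were 256 for ASNS, 42.0 for CHAC1, 45.9 for JDP2, 190 for CTH, 369 for PSPH, 27.9 for ALDH1L2 and 343 for DDIT3. All of these lay below the siCont vemurafenib level.

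In the neighbouring stress lists only SLC1A1 and BAG3 were called. Of 17 cytosolic aminoacyl-tRNA synthetase genes, which charge tRNAs, 0 were called, with a median of 0.31 and AARS1 at 0.74. Amino acid transporters had 0 of 18 higher, with the cystine carrier SLC7A11 at 0.98, and 1 lower, the glutamate carrier SLC1A1 at -1.12 (-0.78 with the mean of its probe sets). The list of eIF2 alpha kinases, phosphatases and related genes had 0 of 9 called, with the related gene IMPACT at 0.39. ER chaperones and sensors had 0 of 19 called and a median of 0.06. The chaperone HSPA5 read 4568 and 4748 (0.06), and HERPUD1, at 0.90, differed most. NRF2 targets had 0 of 13 called, with HMOX1 at 0.89. Of 10 heat shock genes only the cochaperone BAG3, at -1.07, was called.

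**Figure D3:**
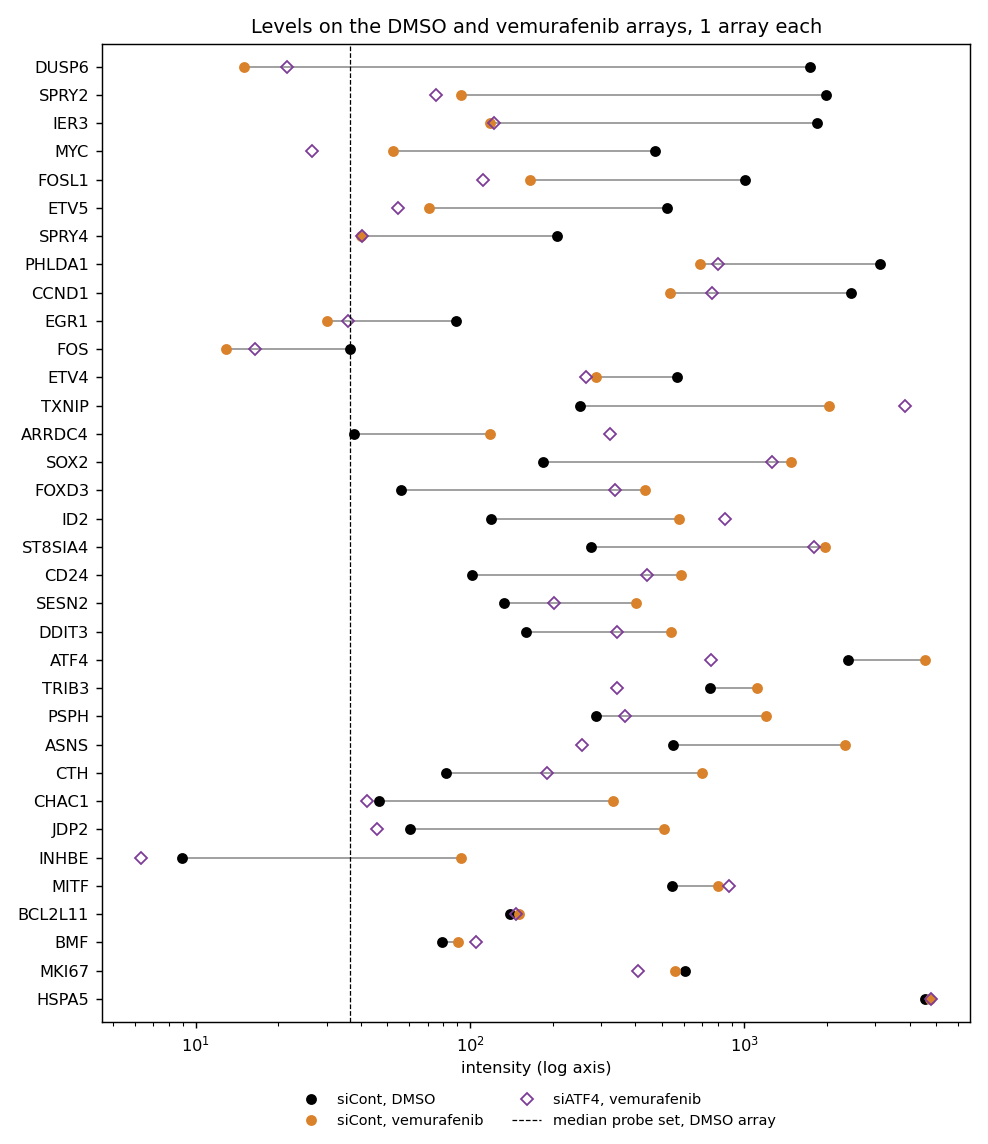
Intensities on a log axis for genes of the ERK, arrestin domain, neural crest and ATF4 groups on the siCont DMSO array (black), the siCont vemurafenib array (orange) and the siATF4 vemurafenib array (open diamonds), 1 array each; the dashed line is the median probe set of the DMSO array. Genes of the ERK group lie to the left with vemurafenib on both arrays, and ASNS, CHAC1, JDP2 and INHBE lie to the right on the siCont array only.

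The promoters of 3 stress genes are shown for the letters upstream of them. Each window is 100 bases long on GRCh38.p14 and from RefSeq. In CHAC1 (chr15:40953221-40953320, plus strand, 250 to 151 bases before the start) and in ASNS (chr7:97872423-97872522, minus strand, 114 to 15 bases before the start) the capitals mark a composite C/EBP-ATF element, the letters to which ATF4 and C/EBP factors bind as pairs. In DDIT3 (chr12:57520665-57520764, minus strand, 250 to 151 bases before the start) they mark an AP-1 and then an ETS match.
CHAC1: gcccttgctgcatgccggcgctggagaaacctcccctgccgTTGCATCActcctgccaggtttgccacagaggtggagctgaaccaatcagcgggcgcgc
ASNS: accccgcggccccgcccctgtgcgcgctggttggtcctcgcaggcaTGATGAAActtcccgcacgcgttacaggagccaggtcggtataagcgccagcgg
DDIT3: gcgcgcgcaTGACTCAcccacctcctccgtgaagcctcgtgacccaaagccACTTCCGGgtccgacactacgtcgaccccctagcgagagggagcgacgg

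TXNIP and 2 of its relatives were higher. TXNIP binds thioredoxin and limits glucose uptake. It read 252 with DMSO and 2032 with vemurafenib (3.01, 8.03-fold), with its 3 probe sets at 2.62 to 3.01, and 3839 with siATF4 and vemurafenib. The related arrestin domain genes ARRDC4, at 37.7 and 118 (1.62), and ARRDC3, at 207 and 510 (1.29), were higher too. ARRDC1 (-0.26) and ARRDC2 (-0.23) were not, so that 3 of 5 were called. Glucose genes were lower in 2 of 21: the transporter SLC2A3 read 324 and 84.8 (-1.92) and the fructose bisphosphate regulator PFKFB3 was at -1.27. Hexokinase HK2 (-0.92) and the transporter SLC2A1 (-0.81) were within 2-fold.

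The TXNIP window lies 147 to 48 bases before its start (chr1:145996627-145996726, minus strand). Its capitals mark a forkhead (FOXO) match and then the carbohydrate response element, the paired E-box-like sites bound by MondoA and ChREBP. The ARRDC4 window lies 165 to 66 bases before its start (chr15:97960538-97960637, plus strand), with an AP-1 match in capitals.
TXNIP: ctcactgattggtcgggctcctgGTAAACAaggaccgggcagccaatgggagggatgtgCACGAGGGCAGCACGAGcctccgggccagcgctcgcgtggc
ARRDC4: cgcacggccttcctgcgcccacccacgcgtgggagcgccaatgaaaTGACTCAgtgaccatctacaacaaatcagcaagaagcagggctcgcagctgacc

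Genes of PI3K and FOXO feedback were higher in 3 of 14 with 0 lower. The sestrin gene SESN3 read 11.2 and 49.4 (2.05, or 1.27 with 16 added), from below the array median, and the atypical cyclin CCNG2 122 and 372 (1.60). CITED2 was at 1.15, or 0.64 with the mean of its probe sets. The insulin receptor substrate IRS1 was at -0.65 and the receptor INSR at -0.07.

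The rest of the 20 highest genes are on none of the lists. SOX2, a factor of stem and neural cells, read 185 with DMSO and 1485 with vemurafenib, 7.99-fold more, and the lowest of its 3 probe sets gave 1.63. FOXD3, a forkhead factor of the early neural crest, read 55.9 and 434 (2.94). Their siATF4 vemurafenib levels were 1259 and 338. ST8SIA4, which builds polysialic acid on the cell surface, read 277 and 1972 (2.83), and its 4 probe sets lay between 2.50 and 2.90. The surface glycoprotein gene CD24 read 101 and 590 (2.53), a value left uncertain by near-identical copies of the gene. The matrix gene ECM2, at 37.6 and 347 (3.17), STON1, at 20.5 and 163 (2.93), RAB39B, at 35.2 and 186 (2.37), and LURAP1L, at 57.2 and 218 (1.91), were also among them. With the mean of all probe sets, entered or not, SOX2 came to 1.77, FOXD3 to 1.58, ECM2 to 1.62 and STON1 to 1.71. Only 1 probe set each had entered for ECM2 and STON1.

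The established melanocyte programme was within 2-fold: 0 of 11 lineage genes were called, with a median of -0.04. Receptor kinases tied to tolerance of BRAF inhibitors gave 1 of 12 higher, the collagen receptor DDR2 (284 and 639, 1.16), and 2 lower, ROR1 (-1.02) and EGFR (148 and 61.3, -1.25). The EGFR value was -0.38 with the mean of its probe sets. ERBB3 read 846 and 1536 (0.86), and AXL was near 0 as given above. Cholesterol synthesis (0 of 14 called, with SQLE at -0.37) and autophagy genes (0 of 17, with ULK1 at 0.60) lay within 2-fold. Interferon genes gave 1 of 19 higher, IFIT1 at 1.33, and hypoxia genes 1 of 11 higher, EGLN3 at 1.37, with ADM at -1.002.

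The remaining genes among the 20 lowest fall on none of the lists: the forkhead gene FOXC2 read 538 and 60.5 (-3.13), the pentraxin PTX3 652 and 83.5 (-2.95) and the long noncoding RNA LINC00973 248 and 33.5 (-2.85). FOXC2 came to -1.96 with the mean of its probe sets, of which only 1 had entered. The clock factor NPAS2 read 252 and 36.02 (-2.78), but -0.86 with the probe set chosen on the 2 arrays. In all 68 of the 253 lower and 25 of the 113 higher genes are on a list, so most called genes are not.

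Most called genes encode proteins, as do most entered genes. Of the 253 lower genes 245 and of the 113 higher 109 are protein-coding, with 8 and 3 long noncoding RNAs. Of all 13160 entered genes 12212 are protein-coding and 708 are long noncoding RNAs. The median gene spans 31.3 kb for the lower, 40.4 kb for the higher and 27.9 kb for all entered genes. The upper quartile was 105.9 kb for both called sets and 69.5 kb for all.

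Motif letters were then counted in the 250 bases before the start, on both strands, for genes with a RefSeq window: 200 lower, 93 higher and 10623 entered genes. The AP-1 letters TGANTCA were found for 28 lower genes (14%) and 8 higher genes (8.6%), against 6.47% of all entered. The ANKRD1, CXCL8 and IL11 windows are among those 28. CArG boxes were found for 9 lower genes (4.5%), EGR1 and LINC00973 among them, for 2 higher genes (2.15%) and for 1.51% of all. The ETS letters CCGGAAGT were rarer in both called sets, in 3 lower genes (1.5%) and 1 higher gene (1.08%) against 7.86% of all. The C/EBP-ATF letters TGATGNAA were found for 11 higher genes (11.8%), 7 lower genes (3.5%) and 2.52% of all. Of the 11 higher genes of the ATF4 and amino acid lists with a window, 4 held them: ASNS, ATF3, CHAC1 and JDP2. The ERK feedback, ETS and immediate early lists together had 20 lower genes with a window. Of these, 0 held the AP-1 letters, 0 the ETS letters and 1 a CArG box. The carbohydrate response element, the E-box-like letters CACGNG repeated after any 5 bases, was found in TXNIP and no other called gene, and in 14 of all entered. Forkhead letters TGTTTAC were in 7 higher genes (7.53%), 8 lower (4%) and 3.09% of all, and the CRE letters TGACGTCA in 2, 6 (3%) and 3.34%. Over all 35116 windows of the table the shares were 6.57% for AP-1, 1.16% for CArG, 3.42% for ETS, 3.14% for C/EBP-ATF, 0.0456% for carbohydrate response, 2.98% for forkhead and 1.65% for CRE. None of these motifs contains another. A match describes letters only, and the counts are small.

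**Figure D4:**
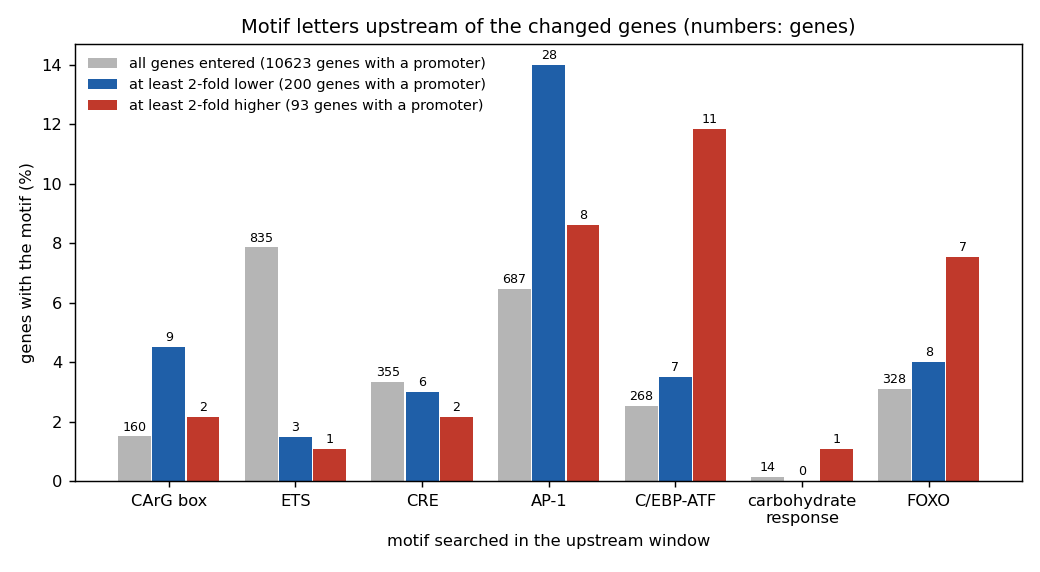
Bars give the percentage of genes whose 250 bases before the start hold each motif, for all entered genes (grey), genes at least 2-fold lower (blue) and genes at least 2-fold higher (red) with vemurafenib; the number above a bar counts genes. The AP-1 bar is tallest for the lower genes (28 genes) and the C/EBP-ATF bar for the higher genes (11 genes).

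Knockdown of BRAF by siRNA gave a separate view of the same pathway, on arrays that share none with the vemurafenib pair. The level of BRAF was not analysed here, so the label of the siBRAF array was not checked on its target, and drug and siRNA differ in time as well as in kind. The siBRAF pair differed more widely: 955 genes (7.15%) were higher and 1015 (7.6%) lower among 13350, with an SD of differences of 0.80 against 0.40. The pairs are on different scales, with array medians of 15.1 and 15.5 here and 36.4 and 36.9 in the vemurafenib pair. The same 1 was added to both, so sizes, spreads and call shares are not directly comparable between the pairs. The part of scale in these gaps was not tested. Among 12611 genes entered in both pairs, 137 were lower in both. These are 54.8% of the 250 vemurafenib-lower genes and 13.8% of the 994 siBRAF-lower genes, while 7.88% of all were lower with siBRAF. Likewise 60 were higher in both, 55.6% of 108 and 7.84% of 765, while 6.07% of all were higher with siBRAF. The vemurafenib-lower genes had a median siBRAF difference of -1.11 and the vemurafenib-higher genes one of 1.19.

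The drug and siRNA differences of single ERK output genes ranked in both ways, with the same limit of scale. ETV4, at -0.98 with vemurafenib, was at -3.47 with siBRAF, and ETV5 was at -2.87 and -3.23. DUSP6 was at -6.76 and -2.14, SPRY2 at -4.41 and -1.04, and MYC at -3.14 and -1.52. SPRY4 was at -2.34 and -2.59, FLI1 at -1.77 and -1.05 and ELK3 at -1.24 and -1.21, so neither the feedback genes nor the ETS factors went 1 way. TXNIP (3.01 and 3.73), SOX2 (7.99-fold, and 2.47 on the log2 scale with siBRAF), FOXD3 (2.94 and 3.19) and SESN3 (2.05 and 4.65) were higher in both. Among cell cycle lists, S phase genes had 0 of 35 lower with vemurafenib and 31 of 35 with siBRAF (medians -0.09 and -1.96), and mitotic genes 0 of 32 and 31 of 32 (0.17 and -2.76). MKI67 was at -0.12 and -3.05, and MMP1 at -0.03 and -4.14. The p53 list had 1 of 15 and 10 of 15 higher, and the interferon list 1 of 19 and 14 of 23. Amino acid synthesis genes had 6 of 16 higher with vemurafenib, and 0 of 16 higher and 8 lower with siBRAF.

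Opposite calls came to 5 of the 108 vemurafenib-higher genes (4.63%, beside 7.88% of all lower with siBRAF) and 9 of the 250 vemurafenib-lower genes (3.6%, beside 6.07% of all higher). Higher with vemurafenib and lower with siBRAF were ASNS (2.08 and -1.28), PSAT1 (1.28 and -1.28), ALDH1L2 (2.14 and -1.34), VLDLR (1.88 and -1.61) and ABCA13 (1.03 and -1.80). Among the 9 lower with vemurafenib and higher with siBRAF were JUN (-1.08 and 3.65), CCN2 (-2.24 and 1.11), CCN1 (-1.27 and 1.26) and the filaggrin gene FLG (-1.94 and 2.51). The other genes of that list are ENC1, HS3ST3B1, LINC02915, SVIL and XYLT1. EGR1 was at -1.54 and 0.83. ABCA13, JUN, FLG and those 5 were named after their values were seen. The difference between drug and knockdown was not tested, since neither has a replicate.

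**Figure D5:**
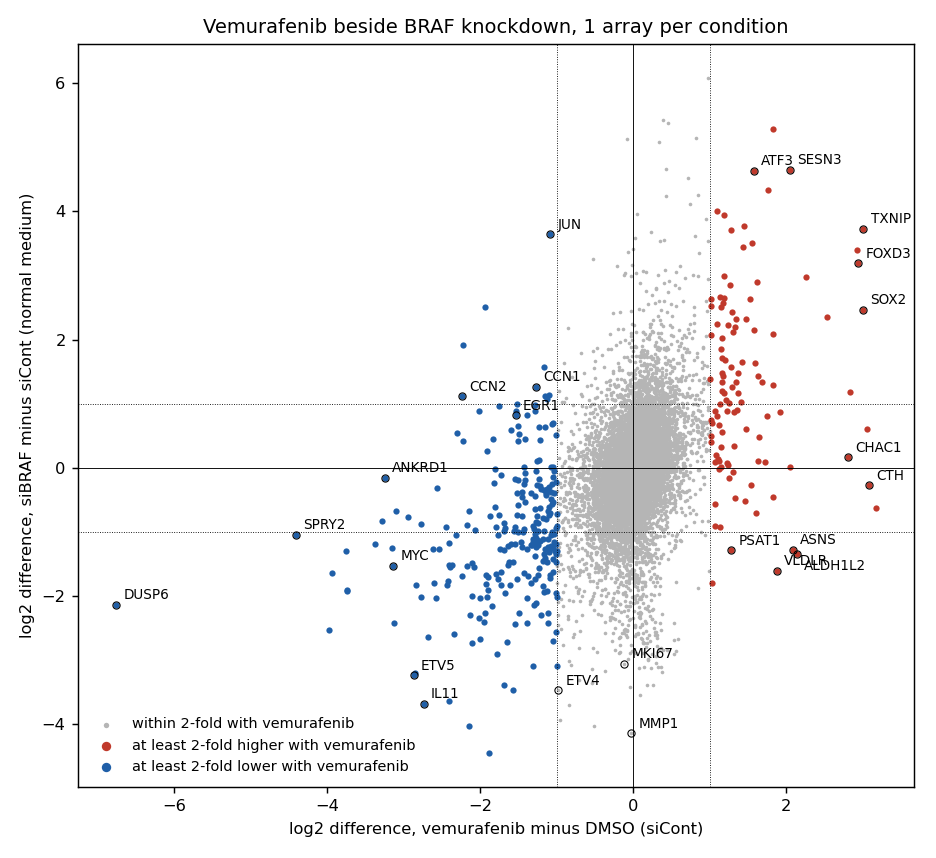
Each point is a gene entered in both pairs (12611 genes), with its log2 difference between vemurafenib and DMSO on the horizontal axis and between siBRAF and siCont in normal medium on the vertical axis. Red and blue mark genes at least 2-fold higher or lower with vemurafenib. ASNS, PSAT1, ALDH1L2 and VLDLR lie at the lower right, JUN, CCN1 and CCN2 at the upper left, and MKI67 and MMP1 near 0 on the horizontal axis and far below 0 on the vertical one.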

How the data were processed

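RNA of A375 cells was hybridised to Affymetrix arrays, 1 per condition. The authors deposited linear intensities. RMA, which corrects background, normalizes arrays and summarises probes into sets, is the tool named in the submitters' processing notes, and its version is not given in the sources used here. Of 54675 probe sets, 62 are controls, 41091 have 1 gene symbol in the platform annotation, 1801 several and 11721 none. Only those with 1 symbol were used, and 41037 of them have an Entrez ID in RefSeq. No further scaling was applied. The 1 added before taking log2 shrinks the differences of low genes. The number of arrays limits the precision, and no test was possible. Calculations used Python 3.11.15, numpy 2.4.6 and pandas 2.3.3 and were tested on simulated data. The 42 gene lists and the members were chosen with earlier results of these data known. Named genes are the 20 highest and 20 lowest, in each list up to 6 called members (otherwise the most different one), and 25 key genes whatever their value. Other members are named to show where a list did not move, after their values were seen. Promoters and gene spans are from RefSeq tables of GRCh38.p14. Of 17 key genes at least 2-fold apart, 6 held a searched motif and are printed, and 5 (ETV5, FOSL1, MYC, CCND1 and IER3) had no window. The alternatives tried were another added constant, filter, probe set rule, normalization and threshold.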

Additional observations from a re-analysis of the deposited data

Results flagged for a closer look

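Signal outside the named genes was seen in probe sets with no gene symbol or with several. Of 3951 such probe sets that entered, 17 were at least 2-fold higher with vemurafenib than with DMSO (0.430%) and 44 were at least 2-fold lower (1.11%). They belong to no comparison above. Their shares are per probe set, while those of named genes count each gene once, so these shares cannot be compared directly.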

How the results depend on the processing

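The 113 higher genes became 70 with the mean of all probe sets, 75 where the filter stood at the 75th percentile, 34 at 3-fold and 413 at 1.5-fold. The 253 lower genes became 174 and 194 in the first pair of these settings, 96 at 3-fold and 607 at 1.5-fold. The other planned settings (16 added, no filter, probe set chosen on the pair, unshared probe sets, quantile normalization, median centring) gave 83 to 126 higher and 201 to 267 lower genes. In every setting that kept the 2-fold threshold, 33 of the 113 and 98 of the 253 stayed called. A gene that did not enter a setting counts as not called there. Of the 13160 genes of the main setting fewer entered in some: 9950 with unshared probe sets and 8103 at the 75th percentile. These counts therefore do not show that the remaining genes lost their difference. DUSP genes lower were 3 of 11 with the mean of all probe sets. Without shared probe sets, immediate early genes lower were 7 of 14. In that setting ATF4 and CHOP genes higher were 4 of 18 and amino acid synthesis genes higher 3 of 13. Fewer genes entered there, and ATF3 (0.07) and CBS (0.12) entered but fell under 2-fold. The unshared probe sets of ATF3 and CBS read near the array median on both arrays. The cause of the changes in these counts was not tested. Of the named genes 6 of 122 came under 2-fold with 16 added, 14 of 115 with the mean of all probe sets, 4 of 92 with unshared ones, 3 with quantile normalization and 2 with the probe set chosen on the pair. Among the 122 genes named by rule, no gene called in the main or the changed setting changed direction. Genes within 2-fold in both settings, and genes named for other reasons, were not checked for direction. No paired analysis was possible because each condition has 1 array.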

Other observations

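The genes in this section were picked after their values were seen, some called and some, such as TFAP2A, HS2ST1 and CYP1B1, named as relatives that were not. Their values describe 1 pair of arrays, and none of these groupings was tested. The repressor ZEB1 read 412 with DMSO and 183 with vemurafenib (-1.17), and its relative ZEB2 62.5 and 182 (1.53). SNAI2, another such repressor, read 31.9 and 69.3 (1.09). TFAP2C, an AP-2 factor, read 1450 and 307 (-2.24), while TFAP2A was at 0.08. The neural factor POU3F2 read 119 and 48.9 (-1.27). SOX11 read 283 and 122 (-1.21) and SOX4 267 and 541 (1.02), although the probe sets of SOX4 ran from 0.00 to 1.26. With siBRAF the ZEB1 and ZEB2 differences were -1.34 and 2.63, and that of POU3F2 -0.05.

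Some enzymes of glycosaminoglycan chains were at least 2-fold lower. CHSY1, a chondroitin synthase, read 1194 and 511 (-1.22), and the sulfotransferases CHST2 and CHST11 were at -1.34 and -1.07. XYLT1, which starts the chains on proteins, was at -1.11, and HS3ST3B1 at -1.16 with its other probe set at 0.09. The hyaluronan synthase HAS3 was at -1.34, and its other probe set at 0.11. The heparan enzyme HS2ST1 was at -0.05.

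Single metabolic genes were lower as well. MAT2A, which makes S-adenosylmethionine, read 1857 and 880 (-1.08), MTAP 1055 and 509 (-1.05) and PNP 596 and 279 (-1.09). The probe sets of MTAP ran from -1.05 to -0.08. Targets of the aryl hydrocarbon receptor gave CYP1A1 at 129 and 41.7 (-1.61) and TIPARP at 1011 and 379 (-1.41), while CYP1B1 was at 0.85. With siBRAF these were at 0.59, 0.45 and 4.25. The immune checkpoint ligand gene CD274 read 70.0 and 23.9 (-1.51), its probe sets ran from -1.51 to -0.59, and its level with vemurafenib was below the array median. RGS16, a brake on G protein signalling, read 183 and 63.5 (-1.51).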
